A study of Homo sapiens with 6 samples.

Results

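The genes described here encode the machinery of mitosis: the kinases and cyclins that start it, the kinetochore, the spindle with its motors, the condensins and the proteins that divide the cell. They were chosen by name, as a list of 55 genes. Of these, 45 had an array row annotated with their symbol alone, out of 12448 such genes in the table, and the 10 others (BUB1B, CENPN, KIF4A, CKAP5, KIF23, KIF20A, RACGAP1, SMC4, NCAPG and NCAPD2) had rows only under several symbols and were not used. All but CENPE, whose mean level lay under the filter on dim rows, entered the counts, which left 44.

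The profiles come from Affymetrix whole-transcript arrays hybridised with RNA of 3 lines derived from HEK293 cells, which are of human embryonic kidney origin. The HEK293/pcDNA-FRT empty vector line (vector cells) carries no insert, the HEK293/pcDNA-FRT wtAPE1 line (wtAPE1) carries tet-on wild-type APE1, and the HEK293/pcDNA-FRT ubAPE1 line (ubAPE1) carries a tet-on fusion of ubiquitin and APE1. APE1 cuts DNA at abasic sites during base excision repair. RNA was taken from untreated cells and after 16 h of doxycycline, at 2 µg per ml according to the series design, and all 6 groups were grown in puromycin at 1 µg per ml. Each group is 1 deposited profile, the authors' mean of 3 biological replicates, so no spread between replicates is in the values and no value below carries an SD.

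As background, most of these genes are transcribed in a wave that peaks in late G2 and mitosis. The repressive DREAM complex holds them down in resting and early-cycle cells, and the factors B-MYB and FOXM1 activate them later. Their promoters often carry a cell cycle homology region, which DREAM and the B-MYB complex bind, and CCAAT boxes bound by NF-Y. In bulk RNA, fewer cells in mitosis and less mitotic RNA per cell cannot be told apart.

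Levels are given in log2 after the median of the kept rows was subtracted from each profile ("centred"), and a response is the centred level with doxycycline minus that without. The subtracted median itself moved with doxycycline by -0.06 in the vector, 0.08 in the wtAPE1 and -0.17 log2 in ubAPE1 cells. APEX1, the targeted gene, lay at 9.54 and 9.66 log2 as deposited without and with doxycycline in vector cells, 9.50 and 10.67 in wtAPE1 cells and 9.82 and 10.58 in ubAPE1 cells. The mitosis markers HMMR, CENPF, NUSAP1 and CDC20 were all present, between 5.49 and 9.49 log2. Among 12 HEK293 and kidney epithelial markers, KRT8 reached 10.54 log2, CDH1 and CDH16 stayed under the filter, and EPCAM lay at 8.03 without doxycycline in vector cells against 5.12 and 5.30 in the wtAPE1 and ubAPE1 lines. Of 8 blood cell markers 5 had a row, of which CD68 (6.20 to 6.86 log2) and CD8A (5.47 to 5.82) passed the filter, while CD14, CD3E and HBB lay under it, the last pair at or under 4.07. The summed linear levels ranged from 172 to 221 for the blood list, from 195 to 223 for 4 fibroblast and smooth muscle markers and from 430 to 948 for 4 neuronal markers, which were highest in the vector profiles. Their part in the results was not tested.

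After doxycycline, mitotic genes were mostly lower in ubAPE1 cells and more often higher than lower in wtAPE1 cells. The median response of the 44 genes was -0.28 log2 in ubAPE1 cells, with 34 below 0, and 0.10 in wtAPE1 cells, with 27 above 0. In vector cells it was -0.08, with 30 below 0. Over all 11619 kept rows the medians were 0.04, -0.01 and 0.02 in the same order. Of these rows, 5277 were below 0 in ubAPE1 cells, 5541 above 0 in wtAPE1 cells and 5355 below 0 in vector cells. In ubAPE1 cells 9 members were at least 1.5-fold lower (SPC25, HMMR, CENPK, ECT2, TTK, KIF14, KIF15, ASPM and SMC2), against 2.75% of all kept rows, and 0 were as much higher, against 1.71%. Just inside that limit lay SMC2 at -0.59, and just outside it ANLN and CENPF at -0.55. All 9 had a mean level under the member median of 7.57 log2, from 5.25 (KIF15) to 7.29 (ASPM). No member passed 1.5-fold in vector cells, where 0.379% of rows were higher and 0.516% lower, or in wtAPE1 cells, where 0.448% were higher and 0.482% lower.

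**Figure D1:**
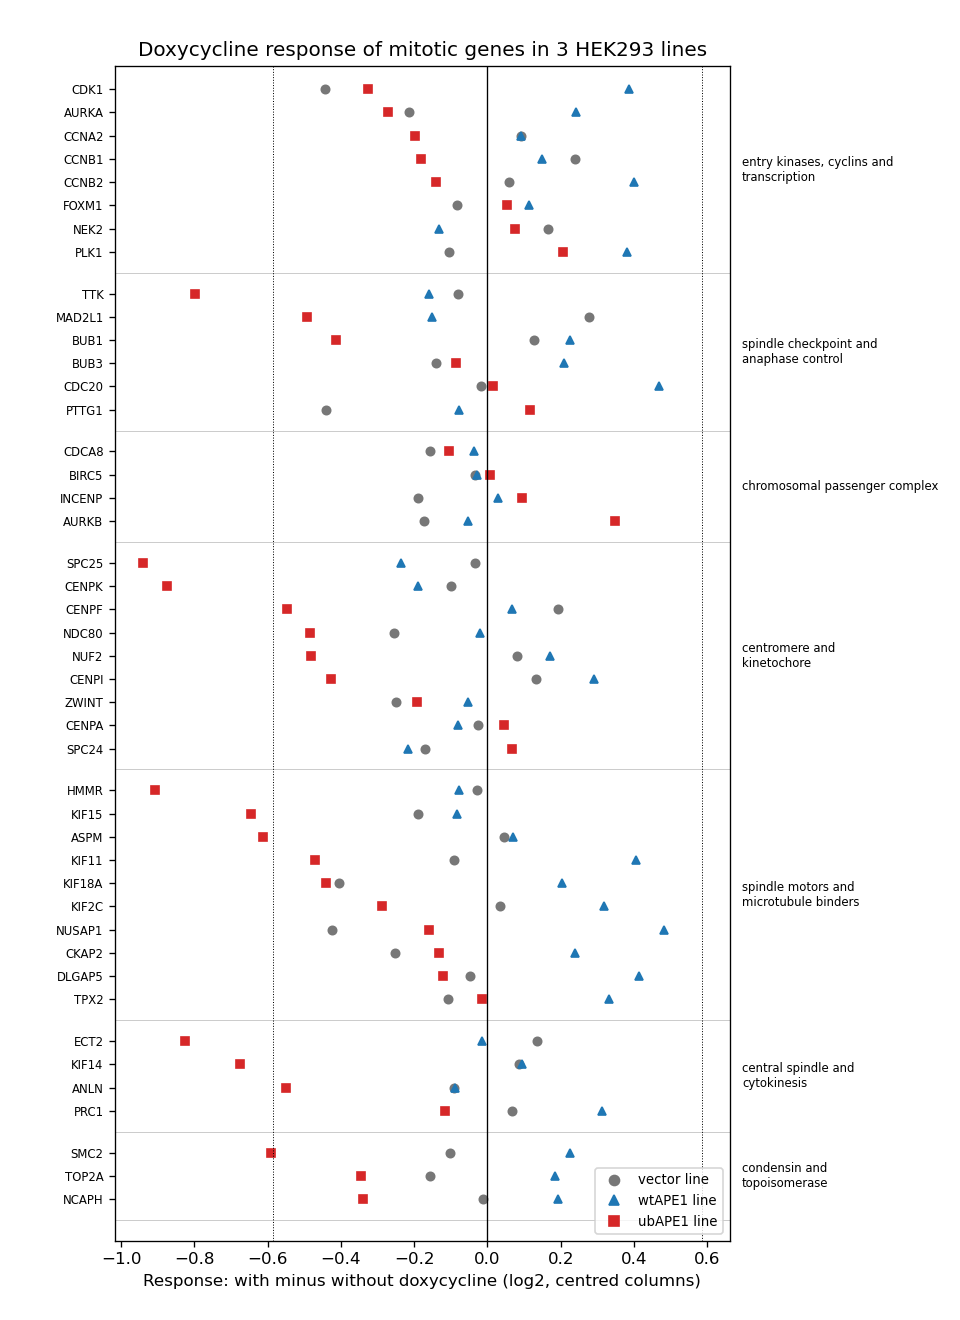
Response to doxycycline (x axis, log2, with minus without, centred profiles) of the 44 mitotic genes, by function, in the vector (grey circles), wtAPE1 (blue triangles) and ubAPE1 (red squares) lines; dotted lines mark 1.5-fold and each point is a difference of 2 averaged profiles, with no error bar. The ubAPE1 points reach down to -0.94 (SPC25), and the wtAPE1 points reach up to 0.48 (NUSAP1).

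The responses of the wtAPE1 and ubAPE1 lines rest on separate profiles, and 23 of the 44 genes were above 0 in the first and below 0 in the second, against 27.2% of all kept rows. The opposite order was seen for 6 genes (NEK2, PTTG1, AURKB, BIRC5, CENPA and SPC24), 4 genes (PLK1, FOXM1, CDC20 and INCENP) were above 0 in both, and 11 were below 0 in both. The split depends on the scaling: as deposited, without centring, 37 members were above 0 in wtAPE1 cells and 42 below 0 in ubAPE1 cells, and 33 were below 0 in vector cells. The whole profiles moved the same way: as deposited, the medians over all kept rows were 0.07, -0.13 and -0.05 in that order. Across 6 ways of scaling, filtering and trend removal, 33 members were below 0 in ubAPE1 cells each time and 26 were above 0 in wtAPE1 cells each time. Only PLK1 and AURKB were above 0 in ubAPE1 cells each time. For the counts as deposited, the counts across settings and the sign classes of this paragraph after the first, no share of all rows was computed.

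The promoters of these genes are shown because many members, with differing responses, hold the same short motifs. RefSeq promoter windows of 300 bases on GRCh38.p14 (250 before and 50 after the transcription start) were found for 48 of the 55 listed genes, as 55 windows. The cell cycle homology region, searched as TTTGAA or TTCGAA on both strands, was held by 38 of these windows, or 69.1%, against 16.4% of all 35116 windows. The CCAAT box, searched as CCAAT on both strands, was held by 40, or 72.7%, against 34.6% of all windows. Both were held by 29 windows, or 52.7%, against 6.38% of all. Printed below are the 150 bases before the start for 3 genes that were at least 1.5-fold lower in ubAPE1 cells (HMMR, ECT2 and ASPM) and 3 that were not (CDC20, PLK1 and PRC1), in gene direction, with both motifs in capitals. These genes were picked by name and each holds both motifs, as do 22 of the 38 kept members with a window.
HMMR, chr5:163460482-163460631, + strand: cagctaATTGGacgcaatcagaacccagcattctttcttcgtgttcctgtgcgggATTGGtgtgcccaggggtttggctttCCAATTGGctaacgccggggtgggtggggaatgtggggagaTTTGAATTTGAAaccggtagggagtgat
ECT2, chr3:172750576-172750725, + strand: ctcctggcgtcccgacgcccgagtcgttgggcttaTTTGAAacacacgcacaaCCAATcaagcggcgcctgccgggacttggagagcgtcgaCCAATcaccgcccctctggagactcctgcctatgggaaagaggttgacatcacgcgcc
ASPM, chr1:197146670-197146819, - strand: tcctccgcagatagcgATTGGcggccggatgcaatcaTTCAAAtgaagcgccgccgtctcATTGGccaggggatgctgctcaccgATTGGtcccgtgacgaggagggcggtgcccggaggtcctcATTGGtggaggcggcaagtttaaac
CDC20, chr1:43358831-43358980, + strand: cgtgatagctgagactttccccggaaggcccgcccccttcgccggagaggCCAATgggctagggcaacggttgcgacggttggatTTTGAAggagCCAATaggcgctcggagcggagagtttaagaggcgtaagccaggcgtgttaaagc
PLK1, chr16:23678739-23678888, + strand: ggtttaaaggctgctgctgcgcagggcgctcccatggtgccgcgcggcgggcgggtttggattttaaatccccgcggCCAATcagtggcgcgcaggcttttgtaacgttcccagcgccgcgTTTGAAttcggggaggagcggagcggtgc
PRC1, chr15:90994536-90994685, - strand: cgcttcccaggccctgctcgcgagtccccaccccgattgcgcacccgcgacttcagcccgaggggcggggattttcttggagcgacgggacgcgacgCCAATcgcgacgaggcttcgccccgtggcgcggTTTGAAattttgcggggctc

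HMMR held 2 adjacent copies of the homology region and 4 CCAAT boxes in this stretch, of which a pair on opposite strands overlaps, and PLK1 and PRC1 held 1 of each. ECT2 has a further window that held neither motif in the 150 bases before its start. Of the kept members with a window, the 22 that held both motifs had a median ubAPE1 response of -0.34 log2, and the 16 that did not had -0.31. In wtAPE1 cells these medians were 0.14 and 0.04. For the homology region alone, the 27 genes with it had a median of -0.44 and the 11 without it -0.18 in ubAPE1 cells. For the CCAAT box alone the order was the other way, with -0.19 for the 30 genes with it and -0.48 for the 8 without it. Neither difference was tested. A match is a description of the letters in a window and no evidence of binding.

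Of the 8 kinases, cyclins and transcription factors of mitotic entry, 5 were below 0 in ubAPE1 cells and 7 were above 0 in wtAPE1 cells. None passed 1.5-fold in any line, and their medians were -0.01, 0.20 and -0.16 log2 across vector, wtAPE1 and ubAPE1 cells. CDK1, the kinase that drives entry into mitosis, had centred levels of 1.19 without and 0.74 with doxycycline in vector cells, 0.61 and 1.00 in wtAPE1 cells, and 1.10 and 0.78 in ubAPE1 cells. It was thus lower with the drug in 2 lines (-0.44 and -0.33) and higher in wtAPE1 cells (0.39), where the untreated profile was the lowest of the 6. CCNB2, a B-type cyclin partner of CDK1, went from 0.86 to 1.26 in wtAPE1 cells and from 1.23 to 1.09 in ubAPE1 cells, against 1.17 and 1.23 in vector cells. PLK1, the polo kinase of centrosome maturation and cytokinesis, went from 2.59 to 2.97 in wtAPE1 cells and from 2.84 to 3.04 in ubAPE1 cells, and from 2.96 to 2.86 in vector cells. It was 1 of 3 genes of this group above 0 in ubAPE1 cells, with FOXM1 (0.05), the transcription factor of mitotic genes, and the centrosome kinase NEK2 (0.08). As deposited, FOXM1 (-0.11) and NEK2 (-0.09) were below 0 there. AURKA, the spindle pole kinase, had the widest spread of levels in the group, with 0.62 untreated and 0.41 treated in vector cells, 0.78 and 1.02 in wtAPE1 cells, and 1.02 and 0.75 in ubAPE1 cells. The responses of CCNA2 and CCNB1 lay between -0.20 and 0.24 in all lines.

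In the spindle checkpoint, which holds anaphase until every chromosome is attached, the kinase TTK was the member furthest from 0. TTK lay at 0.44 and 0.36 log2 in vector cells and at 0.14 and -0.02 in wtAPE1 cells, and went from 0.55 to -0.25 in ubAPE1 cells, 1.74-fold lower. MAD2L1, which keeps the anaphase-promoting complex inhibited, was at 1.51 and 1.79 in vector cells, 1.60 and 1.45 in wtAPE1 cells, and 2.01 and 1.52 in ubAPE1 cells. Its untreated ubAPE1 level was the highest of the 6. BUB1, the checkpoint kinase at kinetochores, responded by 0.13, 0.23 and -0.41 across vector, wtAPE1 and ubAPE1 cells. CDC20, the activator of the anaphase-promoting complex, stood at 2.69 and 2.67 in vector cells and 2.68 and 2.69 in ubAPE1 cells. In wtAPE1 cells it went from 2.34 to 2.81, which are the lowest and the highest of its 6 levels and a 1.38-fold difference. PTTG1, the securin that restrains separase, was lower with doxycycline in vector cells (4.37 to 3.93), and its responses in the other lines were -0.08 and 0.12. BUB3 lay within 0.21 log2 over all 6 profiles.

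Among the 4 genes of the chromosomal passenger complex, 3 were above 0 in ubAPE1 cells, with a median of 0.05 log2, but as deposited only AURKB was. Its kinase AURKB was the member with the highest ubAPE1 response, from 2.35 to 2.70 log2 (0.35), against 2.50 and 2.33 in vector cells and 2.53 and 2.48 in wtAPE1 cells. The scaffold INCENP and the targeting subunit BIRC5 responded by 0.09 and 0.01 in ubAPE1 cells, and CDCA8 by -0.11. A second, dimmer row for BIRC5 gave -1.01, -0.39 and -0.27 across vector, wtAPE1 and ubAPE1 cells, in disagreement with the -0.03, -0.03 and 0.01 of the row used.

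Kinetochore genes were lower in ubAPE1 cells in 7 of 9 kept cases, with a median of -0.48 log2. SPC25, a subunit of the NDC80 complex that grips microtubules, lay at -0.02 and -0.05 in vector cells and -0.06 and -0.30 in wtAPE1 cells. In ubAPE1 cells it went from 0.41 to -0.53, which are the highest and the lowest of its 6 levels and a 1.92-fold difference. CENPK, of the inner kinetochore, showed the same order, from 0.53 to -0.34 (1.83-fold lower) in ubAPE1 cells, with 0.30 and 0.20 in vector cells and 0.17 and -0.02 in wtAPE1 cells. CENPF, a large protein of the outer kinetochore, was at 0.90 and 1.09, 0.92 and 0.98, and 1.18 and 0.64 across vector, wtAPE1 and ubAPE1 cells. The other NDC80 complex genes NDC80 and NUF2 both responded by -0.48 in ubAPE1 cells, and the remaining subunit SPC24 by 0.07. CENPA, the histone H3 variant that marks centromeres, lay within 0.13 log2 over all 6 profiles. In wtAPE1 cells the group's median was -0.05, with CENPI highest at 0.29. CENPE, the kinetochore motor left out as too dim, had responses of -0.38, -0.03 and -0.62.

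All 10 kept genes of spindle motors and microtubule binders were below 0 in ubAPE1 cells (median -0.36 log2), and 8 of 10 were above 0 in wtAPE1 cells (median 0.28). HMMR, a spindle assembly factor, lay at -0.19 and -0.21 in vector cells and at -0.74 and -0.82 in wtAPE1 cells. It went from -0.18 to -1.09 in ubAPE1 cells, 1.88-fold lower, so that the untreated ubAPE1 profile stood with vector cells and the treated profile below wtAPE1 cells. NUSAP1, which bundles spindle microtubules, had its largest response in wtAPE1 cells. It went from 1.35 to 0.93 in vector cells and from 1.03 to 0.87 in ubAPE1 cells, but from 0.71 to 1.20 in wtAPE1 cells (1.40-fold higher). KIF11, the motor that separates spindle poles, was at 0.48 and 0.39 in vector cells, 0.05 and 0.46 in wtAPE1 cells, and 0.63 and 0.16 in ubAPE1 cells, and its responses in the latter 2 lines differed by -0.88. ASPM, a spindle pole protein, went from 0.87 to 0.26 in ubAPE1 cells, with 0.73 and 0.78 in vector cells and 0.49 and 0.56 in wtAPE1 cells. KIF15, a motor that works beside KIF11, went from -1.23 to -1.87, against -1.29 and -1.48 in vector cells and -1.32 and -1.40 in wtAPE1 cells. DLGAP5, TPX2, KIF2C and CKAP2 responded by 0.41, 0.33, 0.32 and 0.24 in wtAPE1 cells.

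Of the cytokinesis genes, ECT2, the exchange factor that activates RhoA at the cell equator, was at 0.57 and 0.70 log2 in vector cells and 0.21 and 0.19 in wtAPE1 cells. It went from 0.65 to -0.17 in ubAPE1 cells, 1.77-fold lower and below all other profiles. KIF14, a motor of the midbody, went from 0.30 to -0.38 in that line, with 0.13 and 0.21 in vector cells and -0.14 and -0.04 in wtAPE1 cells. ANLN, the scaffold of the contractile ring, responded by -0.55 in ubAPE1 cells and by -0.09 in both others. PRC1, which bundles the central spindle, responded by 0.07, 0.31 and -0.12 across vector, wtAPE1 and ubAPE1 cells.

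The 3 chromosome condensation genes had responses of the same sign as each other in every line. SMC2, a condensin core subunit, was at 0.53 and 0.43 log2 in vector cells, 0.28 and 0.51 in wtAPE1 cells, and 0.78 and 0.18 in ubAPE1 cells. TOP2A, the topoisomerase that untangles sister chromatids, and NCAPH, a further condensin subunit, responded by -0.35 and -0.34 in ubAPE1 cells. In wtAPE1 cells all 3 lay between 0.18 and 0.23, and in vector cells all were below 0.

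**Figure D2:**
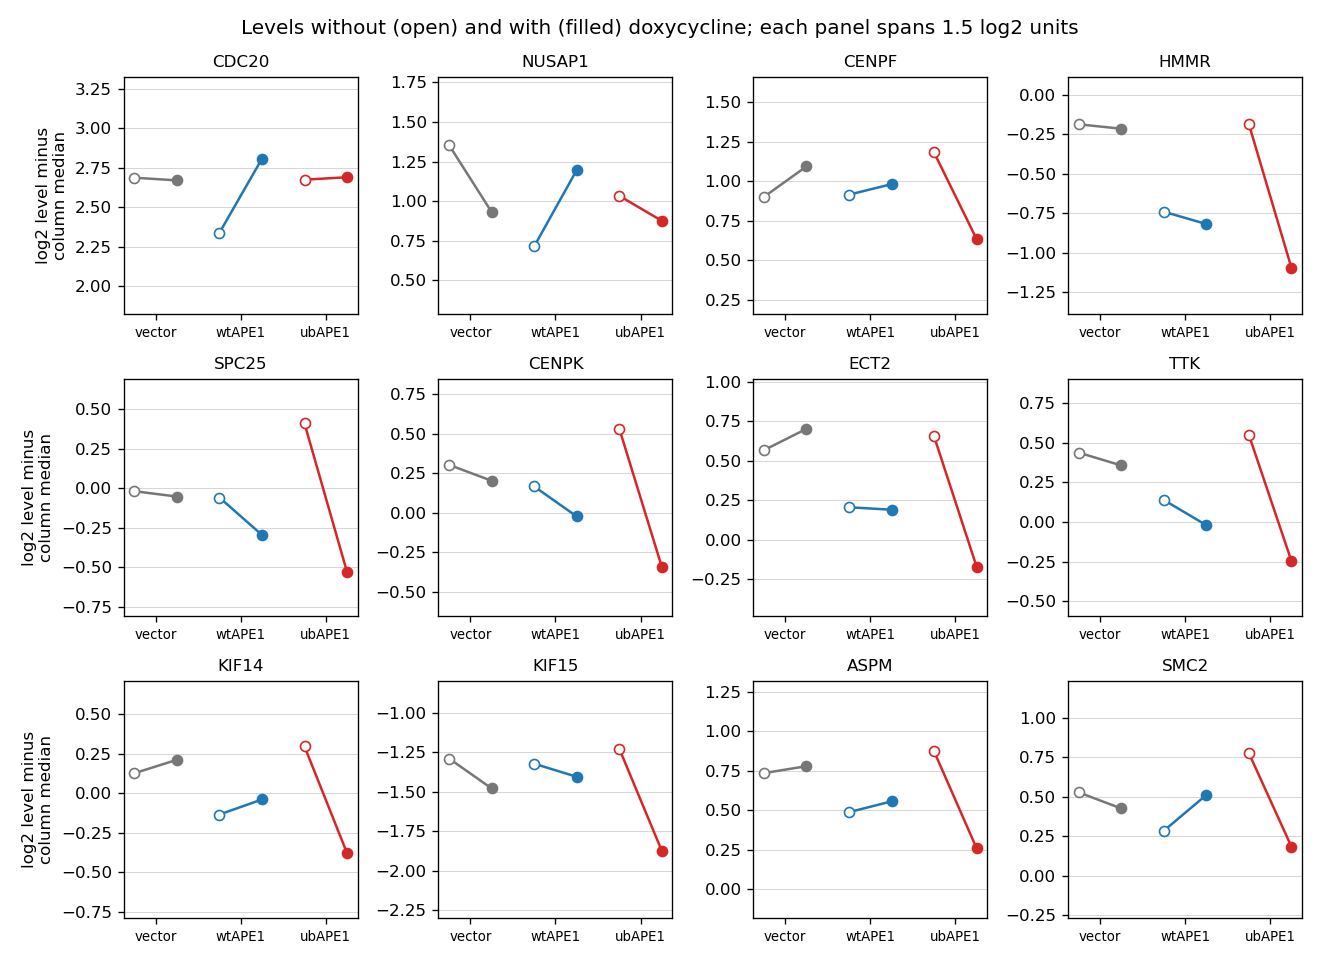
Centred log2 level (y axis, log2 minus profile median, each panel spanning 1.5 log2 units) of the 4 marker genes and the 8 other members at least 1.5-fold lower in ubAPE1 cells, without (open) and with (filled) doxycycline; each point is 1 averaged profile. The treated ubAPE1 point is the lowest of 6 for HMMR at -1.09 and for SPC25 at -0.53, and the untreated wtAPE1 point is the lowest for CDC20 at 2.34 and NUSAP1 at 0.71.

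The contrasting responses came from different profiles. For each gene, the 6 centred levels were set against their own mean. The median deviation over the 44 members was 0.07 and 0.03 log2 in vector cells without and with doxycycline, -0.11 and 0.03 in wtAPE1 cells, and 0.16 and -0.13 in ubAPE1 cells. The lowest of the 6 levels fell in the treated ubAPE1 profile for 16 members and in the untreated wtAPE1 profile for 14, or 36.4% and 31.8%, against 18.6% and 18% of all kept rows. The treated vector profile was lowest for 8 members, against 19.9% of rows. The untreated vector, treated wtAPE1 and untreated ubAPE1 profiles were lowest for 2 members each, against 20.6%, 7.08% and 15.8% of rows. The spread of values within a profile moved alongside: the SD over rows was smallest in the untreated wtAPE1 (1.53 log2) and the treated ubAPE1 profile (1.56), and 1.58 to 1.63 in the others. The members lay above the median row, with a median level of 7.57 log2 against 6.67 for all rows. The lower values in ubAPE1 cells were not even over levels. With kept rows binned by level, the 23 members in the brightest bin had a median ubAPE1 response of -0.12 log2. The 15 in the next bin had -0.48, the 4 below them -0.70 and the 2 dimmest -0.54. All kept rows of these bins had -0.003, -0.02, 0.04 and 0.16 in the same order. With the trend of response on level removed, the median response of the 44 members was -0.26 in ubAPE1 cells and 0.06 in wtAPE1 cells. The highest level fell in the untreated ubAPE1 profile for 19 members, or 43.2%, against 15.2% of rows. The untreated wtAPE1 profile lay below the untreated vector profile for 32 of 44 members, by a median of -0.22, against 46.1% of rows. With doxycycline 19 of 44 lay below, with a median difference of 0.02, against 44.6% of rows. In ubAPE1 cells 28 members were above vector cells without doxycycline (median difference 0.06, against 53.7% of rows) and 29 below it with doxycycline (-0.18, against 44.4%).

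**Figure D3:**
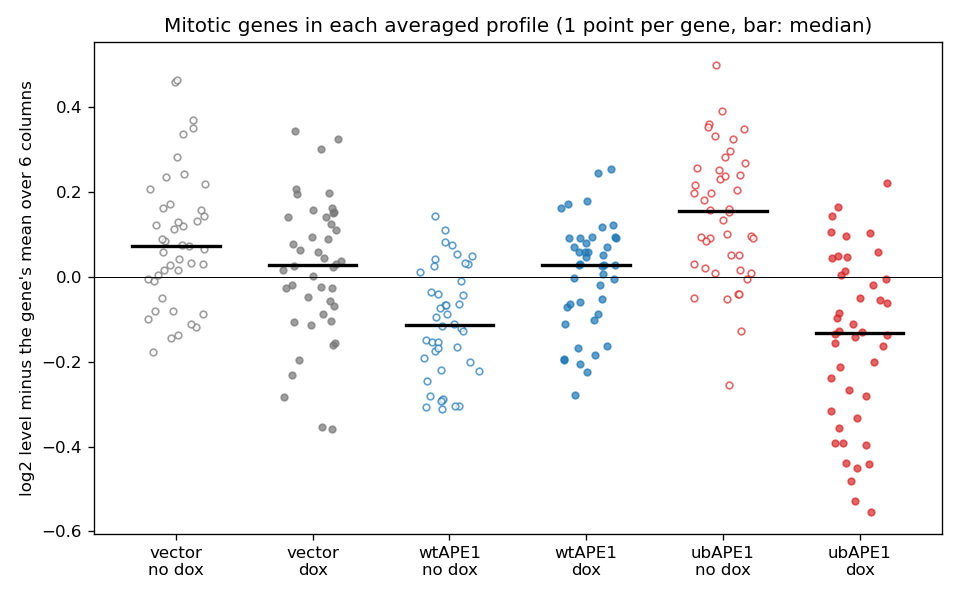
Deviation of each of the 44 members from its own mean over the 6 averaged profiles (y axis, log2, centred), by line and doxycycline; points are genes and bars are medians. The medians run from 0.16 in the untreated to -0.13 in the treated ubAPE1 profile, and from -0.11 in the untreated to 0.03 in the treated wtAPE1 profile.

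Whether 1 line responded unlike the others was tested with limma, setting the response of each line against the mean of the other 2. In this test the difference between the other 2 lines stands in for replicate error, with 1 residual degree of freedom, and the ubAPE1 response itself is 1 value with no measured error. That error was pooled over all rows by limma, with prior degrees of freedom of 34.9 in the ubAPE1 fit and infinite in the others. A gene's own difference between the other lines thus had little weight in its p-value. For ubAPE1 cells limma called 3 members: ECT2 at -0.88 ± 0.22 log2 from the other lines (SE, adjusted p = 0.0315), HMMR at -0.86 ± 0.22 (adjusted p = 0.0342) and SPC25 at -0.80 ± 0.22 (adjusted p = 0.0472). Of all rows, 1.57% were called lower and 0.826% higher in the same test, and no member was called higher. The list's median difference was -0.34, against 0.04 over all rows, with 35 of 44 members below 0 against 5368 of 11619 rows. An unadjusted p under 0.05 was found for 18 members (40.9%), against 20.5% of rows. The 3 calls were lost with the values as deposited (limma adjusted p = 0.184 for each), with no row filter (0.246 for each) and with the spread of the additive fit (0.332 to 0.405). They rest on 1 treated profile.

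For wtAPE1 cells the same test called 0 members in limma, with 3 (6.82%) at an unadjusted p under 0.05, against 1.76% of rows. For vector cells it called 0, with 0 unadjusted, against 1.88% of rows. The SE was 0.34 log2 in both of these fits, against 0.22 for the members called in ubAPE1 cells. A difference of like size was thus less readily called here. Of all rows, 0.00861% were called in each direction for wtAPE1 and 0% for vector cells. The median difference of the wtAPE1 response from the others was 0.34 log2 over the members, against -0.03 over all rows. The difference was above 0 for 38 of 44 members, against 5390 of 11619 rows. CDK1 and NUSAP1 had the largest, both 0.77, with KIF11 at 0.69. The ubAPE1 responses are part of the mean set against wtAPE1 cells here, so this comparison and that for ubAPE1 cells are not separate results. Taken pair by pair, without a test, the wtAPE1 response exceeded that of vector cells by a median of 0.18, and by at least 1.5-fold for NUSAP1 (0.91), CDK1 (0.83) and KIF18A (0.61), against 2.09% of rows, with 1.82% as much lower. The ubAPE1 response lay under that of wtAPE1 cells by a median of 0.52, with 17 of 44 members at least 1.5-fold lower against 6.15% of rows, and with 5.78% of rows as much higher. Against vector cells, which shares its profiles with the comparison of wtAPE1 and vector, the ubAPE1 response had a median difference of -0.19, with 9 members at least 1.5-fold lower against 8.31% of rows, and with 4.64% of rows as much higher.

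Levels of the lines, averaged over both states, were compared by the additive limma fit (terms for line and doxycycline, 2 residual degrees of freedom). HMMR was lower in wtAPE1 than in vector cells by 0.58 ± 0.18 log2 (SE, limma adjusted p = 0.0267), and this was the 1 member called, against 4.03% of rows lower and 1.62% higher. As deposited the adjusted p was 0.195. NDC80 was next, with values of -0.52 in wtAPE1 cells (adjusted p = 0.0584) and -0.48 in ubAPE1 cells (adjusted p = 0.108). Between ubAPE1 and vector limma called 0 members, against 3.55% of rows called lower and 1.08% higher. At an unadjusted p under 0.05 there were 7 members, or 15.9%, near the 13.6% of rows. Between ubAPE1 and wtAPE1 it called 0, with 0 unadjusted, against 0.00861% of rows lower and 0% higher. The member medians were -0.11, -0.04 and 0.05 log2 in these comparisons.

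For an effect of the drug shared by all 3 lines, limma called 0 members, against 0.043% of rows called lower and 0.0344% higher. At an unadjusted p under 0.05 there were 5 members, or 11.4%, against 2.55% of rows. These were SPC25, CENPK, TTK, HMMR and KIF15, all among the members at least 1.5-fold lower in ubAPE1 cells. With the ubAPE1 line left out of the limma fit, 0 members had an unadjusted p under 0.05, against 6.06% of rows. The median member effect was -0.06 log2 against 0.02 over all rows. SPC25 had the lowest adjusted p of the list, 0.984.

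In ubAPE1 cells the response of the members went with genomic length, taken from the RefSeq table for GRCh38.p14, which held a length for all 44. The 14 members with the shortest genes had a median ubAPE1 response of -0.04 log2, with 7 below 0 and none at least 1.5-fold lower. The 15 in the middle had -0.29, with 12 below 0 and 3 at least 1.5-fold lower. The 15 longest had -0.55, with all 15 below 0 and 6 at least 1.5-fold lower. All kept rows of the same length ranges had medians of 0.18, 0.02 and -0.11, so the member medians lay lower than those of rows of like length in each range. No share of all rows below 0 or past 1.5-fold was computed by length range, so the counts above have no such share beside them. In vector cells the member medians were -0.12, -0.03 and -0.09, and in wtAPE1 cells -0.03, 0.18 and 0.10. With the length trend of all rows removed, the member median in ubAPE1 cells was -0.32, with 40 of 44 below 0, and 6 members were at least 1.5-fold lower against 2.37% of rows. Only 5 of the 9 members named at first stayed past that limit, and MAD2L1 (-0.67) joined them. KIF14 (-0.58), SMC2 (-0.54), KIF15 (-0.52) and ASPM (-0.52) no longer passed it.

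**Figure D4:**
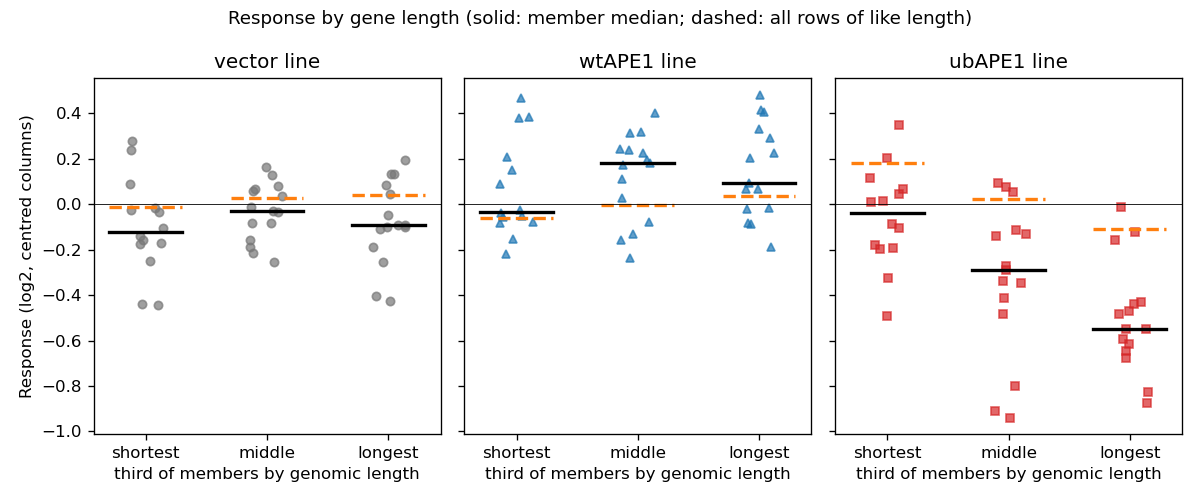
Response to doxycycline (y axis, log2, centred) of the 14 members with the shortest genes, the 15 in the middle and the 15 longest, in each line; points are genes, solid bars member medians and dashed bars medians of all kept rows of like length. In ubAPE1 cells the solid bars lie at -0.04, -0.29 and -0.55 and the dashed bars at 0.18, 0.02 and -0.11.

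Neighbouring cell cycle lists were measured beside these genes. Of 37 kept genes from a list of other mitotic genes, 24 were below 0 in ubAPE1 cells (median -0.12 log2) and 23 above 0 in wtAPE1 cells (median 0.11), with 3 at least 1.5-fold lower in ubAPE1 cells. These 3 are 8.11% of the list, against the 2.75% of all rows given above. DEPDC1, a mitotic regulator, lay at -0.87 there, a difference of -0.95 ± 0.22 from the other lines (SE, limma adjusted p = 0.0249). That call was lost as deposited (limma adjusted p = 0.184), with no row filter (0.246) and with the additive fit's spread (0.313). UBE2C, the ubiquitin-conjugating enzyme of the anaphase-promoting complex, was higher than in vector cells by 0.66 ± 0.18 in wtAPE1 cells (limma adjusted p = 0.00675) and 0.57 ± 0.18 in ubAPE1 cells (adjusted p = 0.0357). As deposited these limma adjusted p were 0.171 and 0.27, and the second was 0.0573 with no row filter and 0.0857 with only those lines fitted. No other gene of this list was called in any of the limma tests. Cohesin genes, which hold sister chromatids together, had medians of -0.01, 0.17 and -0.23 across vector, wtAPE1 and ubAPE1 cells over 10 genes. Of these, 0 were at least 1.5-fold lower in ubAPE1 cells. The cohesin loader NIPBL was lower than in vector cells by 0.67 ± 0.18 (SE) in both APE1 lines (limma adjusted p = 0.00658 for wtAPE1 and 0.00638 for ubAPE1), and as deposited neither passed (0.108 and 0.176).

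Subunits and regulators of the anaphase-promoting complex had medians of 0.05, -0.01 and -0.09 log2 over 12 genes, with ANAPC10 at -0.61 and ANAPC4 at 0.52 in ubAPE1 cells and 0 called in limma. ANAPC10 alone, or 8.33% of that list, was at least 1.5-fold lower there, against 2.75% of all rows. The 47 genes of the start of S phase and of DNA replication had medians of -0.07, 0.06 and -0.08, and 2 of them (4.26%) were at least 1.5-fold lower in ubAPE1 cells, near the 2.75% of all rows. These were PRIM2, a primase subunit, at -0.72 and CDC7, the kinase that fires origins, at -0.65. PRIM2 differed from the other lines by -1.07 ± 0.22 (SE, limma adjusted p = 0.0131), a call lost as deposited (0.184), with no row filter (0.246) and with the additive fit's spread (0.211). CDK inhibitors and pocket proteins had medians of -0.05, -0.04 and 0.08 over 13 genes, with LIN9 of the DREAM and B-MYB complexes at -0.61 in ubAPE1 cells and 0 called in limma. LIN9 alone, or 7.69% of that list, was at least 1.5-fold lower there. No test compared these lists with the mitotic genes.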

How the data were processed

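The deposited log2 values are 1 column per group, each the authors' mean of 3 biological replicates per the labels. The submitters' processing notes name build hg 18. How arrays were summarised and normalised is not given in these sources, and the range of the values shows a log2 scale. Of 15492 rows, 12616 had 1 symbol in the platform annotation. The 11619 rows with a mean at or above the 25th percentile (5.03 log2) were kept, and each column was centred on their median. For a gene with several rows the brightest was used. Tests used limma 3.58.1 in R 4.3.3 (lmFit, eBayes, Benjamini-Hochberg over all kept rows, threshold 0.05) and were tested on simulated data. In the additive fit the prior degrees of freedom were infinite, so every row shared an SD of 0.178 log2. Lines or doxycycline states stand in for replicates, and in that fit their spread was pooled over rows. Its p-values thus set the size of a difference against the shared SD and do not measure a gene's own evenness. The number of arrays limits the precision.

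Members and lists were chosen with earlier results of these data known. Levels in every profile are given for the markers, for members past 1.5-fold or a test, and for the members of each functional group with the widest range over responses and over profiles. From other lists, called members and the 2 of largest size may be named. CCNB2, PLK1, KIF11 and PTTG1 were added after their values were seen. Alternatives were values as deposited, quantile normalization, other row filters, all rows of a gene, a 2-fold limit, removal of a length trend, an intensity trend with robust eBayes, fewer lines and the additive fit's spread. Removal of a level trend was chosen after seeing the data.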

Additional observations from a re-analysis of the deposited data

Results flagged for a closer look

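The mitotic genes' responses differed between 2 lines, and 23 of 44 were above 0 in wtAPE1 and below 0 in ubAPE1 cells. Their median response was 0.10 log2 in wtAPE1 cells and -0.28 in ubAPE1 cells, and the median of the gene-wise differences was -0.52 (ubAPE1 minus wtAPE1). With 1 averaged profile per group this difference over the list was not tested.

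In limma the response of ubAPE1 cells was called different from the mean of the other lines for the members SPC25 (-0.80 log2), HMMR (-0.86) and ECT2 (-0.88), and for DEPDC1 (-0.95) and PRIM2 (-1.07) of the neighbouring lists. All 5 calls were lost as deposited, with no row filter and with the additive fit's spread, and they rest on 1 ubAPE1 response. The treated ubAPE1 profile also had a median over all rows of 6.07 log2, against 6.21 in the untreated profile and 6.07 in the untreated wtAPE1 profile. Its part in these results was not tested beyond the scalings given below.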

How the results depend on the processing

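Pairing by replicate was not possible because each group holds 1 averaged profile and the labels give no replicate numbers to block on. Pairing by line was used in the additive fit, which compares treated with untreated profiles within lines. The median member responses in the 3 lines kept their sign under every alternative run for them, and so did their differences, which were run as deposited, after quantile normalization and with the length or level trend removed. As deposited, the median was -0.45 log2 in ubAPE1 cells, the excess of the wtAPE1 over the vector response 0.32, and the ubAPE1 minus wtAPE1 difference -0.77. With rows at or above the 50th percentile, which kept 40 members, the ubAPE1 median was -0.16. The 9 members at least 1.5-fold lower in ubAPE1 cells became 17 as deposited (against 8.57% of rows) and 5 with rows at or above the 50th percentile (against 2.1%). At 2-fold they became 0, and no share of all rows was computed at that limit. In vector cells 1 was at least 1.5-fold lower when the second BIRC5 row was counted, against 0.516% of rows. The 3 members called in ubAPE1 cells against the others (2.39% of rows) became 0 as deposited and with no row filter (0% of rows in both), 0 with the additive fit's spread (0.0947%), 5 after quantile normalization (4.17%), 1 with rows at or above the 50th percentile (2.78%) and 8 with an intensity trend and robust eBayes (4.79%). The 1 member called between wtAPE1 and vector (5.65% of rows) became 0 as deposited (2.11%) and with no row filter (4.86%). It also became 0 with rows at or above the 50th percentile (4.67%), where HMMR was not kept. The count became 6 when only those 2 lines were fitted, a fit that called 19.8% of all rows. Without the filter the HMMR adjusted p was 0.0623. Members called for the common doxycycline effect stayed at 0 under every alternative run, including without each line. The number of averaged profiles limits these comparisons.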
